A study of Saccharomyces cerevisiae with 14 samples.

Results

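The transcripts described here are those of 10 genes that govern how budding yeast leaves glucose repression and starts to respire: SNF1, REG1, MIG1, MIG2, CAT8, SIP4, RDS2, ADR1, HAP2 and HAP4. They were chosen by name from a list of regulators and by no rule on their values, though with earlier results of these data known. All 10 were found among the 6598 genes used, with a value in every condition. RNA was measured in Saccharomyces cerevisiae W303 as 6 conditions: an rpd3 deletion strain in log, DS and Q, and the wild type in log, DS and Q. RPD3 encodes a histone deacetylase, and both strains share the W303 background. Log cells were taken during growth at an OD600 of 0.4 to 0.6, DS cells (diauxic shift) 2 hours after the glucose was used up, and Q cells (quiescent) as the fraction purified on a Percoll gradient from 7-day cultures. Each condition had 2 isolates, and the 14 strand-specific libraries carried ERCC spike-in RNA. Wild-type log cells had 4 libraries, at 0.2 and 1 spike equivalents. The deposited table gives 1 value per condition, so no SD, test or p-value can be given for any difference, the read depth is unknown, and "higher" and "lower" describe single pooled values.

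On glucose, budding yeast ferments and keeps the genes for other carbon sources switched off. Snf1, the yeast AMP-activated protein kinase, is held inactive by the phosphatase Glc7 with its targeting subunit Reg1, while the zinc finger repressors Mig1 and Mig2 sit on glucose-repressed promoters and recruit the corepressor Cyc8-Tup1. When glucose runs out, active Snf1 drives Mig1 out of the nucleus, and the activators Cat8, Sip4, Rds2 and Adr1 switch on genes for gluconeogenesis, the glyoxylate cycle, ethanol use and fatty acid oxidation. Respiratory genes are activated by the Hap complex, in which Hap2 belongs to the part that binds DNA at CCAAT boxes and Hap4 carries the activation domain and is the regulated subunit. Much of the control of Snf1, Reg1 and Mig1 acts on the proteins, which RNA levels do not show.

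The upstream sequences of CAT8, SIP4 and MIG1 are shown because SIP4 and MIG1 had the profiles farthest apart among the 10, and because CAT8, itself repressed by Mig1, is known to activate SIP4. Ume6, a DNA-binding protein that recruits Rpd3 to promoters, binds the URS1 motif. The table holds gene names and no positions, and its genome build is not given in the sources used here, so the sequences and positions were read from the RefSeq annotation of the R64 assembly, which is of strain S288C and not W303. Each sequence is written 5′ to 3′ along the strand of its gene, and capitals mark motif matches on either strand. For CAT8 (chrXIII:831514-831629, minus strand) the capitals mark, in order, 1 URS1 core, 2 Mig1 elements and 1 CCAAT box. For SIP4 (chrX:265651-265721, plus strand) they mark 2 URS1 cores. For MIG1 (chrVII:433262-433402, minus strand) they mark 2 of its 4 Mig1 elements.
CAT8: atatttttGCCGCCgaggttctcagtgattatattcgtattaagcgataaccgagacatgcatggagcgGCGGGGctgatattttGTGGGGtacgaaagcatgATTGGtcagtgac
SIP4: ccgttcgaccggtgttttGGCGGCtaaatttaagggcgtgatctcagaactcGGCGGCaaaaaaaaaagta
MIG1: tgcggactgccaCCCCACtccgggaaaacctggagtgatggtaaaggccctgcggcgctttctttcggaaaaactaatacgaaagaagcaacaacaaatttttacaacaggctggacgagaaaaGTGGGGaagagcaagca

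In the 600 bases before the annotated start, the Mig1 element (CCGGGG or CTGGGG or GCGGGG or GTGGGG) was present in 4 of the 10 genes, CAT8, HAP4, MIG1 and MIG2, and in 27.8% of 5999 protein-coding genes. The URS1 core (GGCGGC) was present in SNF1, CAT8 and SIP4, and in 11.4% of all windows. CCAAT was present in 8 of the 10 genes and in 70.3% of all windows, a share near that of the genes described. The core of the Adr1 site (TTGGAG or TTGGGG) was found in MIG1 alone among the 10, and in 32.1% of all windows. The letters searched for as the carbon source responsive element bound by Cat8 and Sip4 were found in none of the 10. They matched 4 of 5999 windows (0.0667%), fewer than the 11 Cat8 and Sip4 targets listed below. So rare a match cannot decide whether SIP4 or any other member lacks the element. Both strands were searched, and the Mig1 and Adr1 letters do not overlap. A match is a description of these letters and no evidence of binding.

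Values are FPKM, which are per length and so can be compared between genes, and the authors scaled them with the spike-in RNA to RNA content per cell. On that scale the median gene was at 50.5, 34.3 and 19.1 FPKM in rpd3 log, DS and Q cells, against 38.4, 20.5 and 1.39 FPKM in wild-type log, DS and Q cells. A change below is the difference of log2(FPKM + 1), which understates changes of genes near 1 FPKM, and it is set against the median change of all genes because the whole scale moves between conditions. Where centred columns are named, each column was divided by its median gene and set to the median of wild-type log cells. In bulk samples, fewer cells of a type and less RNA per cell cannot be told apart. RPD3 was at 0.941 FPKM in DS and 0.0279 FPKM in Q cells of the deletion strain and had no value in its log cells, against 70.8, 37.7 and 2.35 FPKM in wild-type log, DS and Q cells. The markers of growth on glucose were highest in log cells (6 of 6) and those of the diauxic shift highest in DS cells (4 of 4) in both strains. All 6 stationary phase markers were above their log level in Q cells of both strains, but only 3 of them in the mutant and 1 in the wild type were highest in Q cells.

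The order of the regulators turned over with the harvest. In the mutant, SNF1 (110.0 FPKM) and HAP4 (102) led in log cells, HAP4 (286) and SIP4 (259) in DS cells, and ADR1 (92.4) and SIP4 (57.9) in Q cells. In wild-type log cells HAP4 (135 FPKM), SNF1 (89.8), REG1 (64.8), MIG1 (52.2) and MIG2 (43.1) stood above HAP2 (23.8), ADR1 (19.4), RDS2 (17.1), CAT8 (6.25) and SIP4 (2.61). In wild-type DS cells HAP4 (148), ADR1 (135) and SIP4 (124) led, CAT8 (53.4) and SNF1 (52.9) followed, and MIG1 (22.8) was last. In wild-type Q cells ADR1 (20.5), REG1 (13.6) and CAT8 (13.2) led, and HAP4 (2.07) was last. With 1 value per condition, whether neighbours in these orders differ beyond the spread of isolates cannot be judged.

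**Figure D1:**
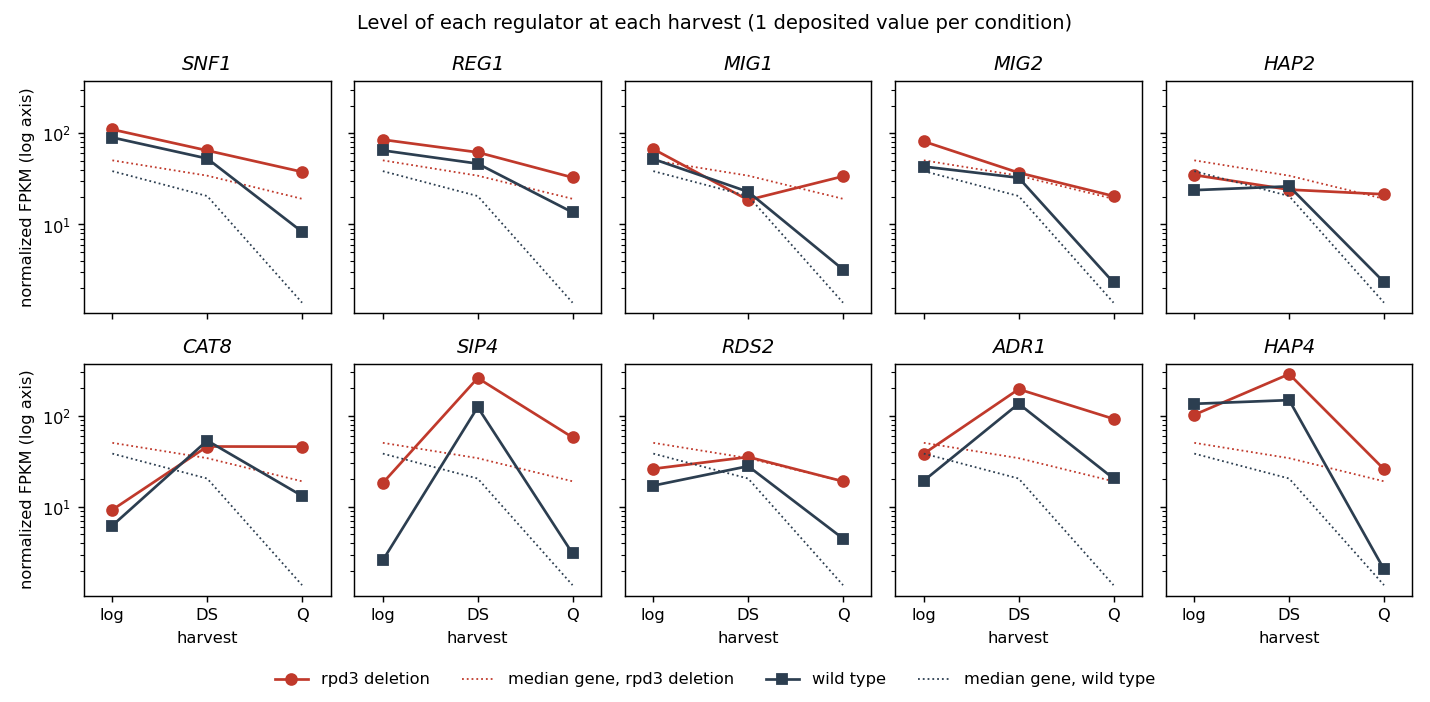
Normalized FPKM of each regulator (log axis) at the 3 harvests in the rpd3 deletion (circles) and the wild type (squares); each point is 1 deposited value, and dotted lines are the median gene of the same condition. SIP4, CAT8 and ADR1 peak in DS cells of the wild type, where SIP4 reaches 124 FPKM against 2.61 FPKM in log cells, while MIG1 and SNF1 are highest in log cells in both strains; with centred columns CAT8 and ADR1 of the wild type, SNF1 of the wild type and MIG1 of both strains are highest in Q cells.

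SNF1, the catalytic subunit of the kinase, was at 110.0, 64.7 and 37.7 FPKM in rpd3 log, DS and Q cells, against 89.8, 52.9 and 8.32 FPKM in the wild type. Its change minus the median change lay between -0.24 and 0.58 in the 6 comparisons of harvests. With centred columns SNF1 was higher in wild-type Q cells, by 1.35 against log and 1.21 against DS cells. In the other comparisons of harvests its centred change lay between -0.21 and 0.14. REG1, the subunit that directs the phosphatase to Snf1, was at 85.1, 61.8 and 32.8 FPKM in rpd3 log, DS and Q cells, against 64.8, 46.5 and 13.6 FPKM in the wild type. REG1 kept more of its log level in wild-type Q cells than the median gene did, with a change of -2.17, which is 1.69 above the median change of -3.87. The ratio of SNF1 to REG1 FPKM was 1.29, 1.05 and 1.15 in rpd3 log, DS and Q cells. In the wild type it was 1.39, 1.14 and 0.612. Such a ratio does not depend on the scale of a column if all its genes were scaled by the same factor. Whether the authors' scaling did so is not known. Wild-type Q cells were the only condition of the 6 in which REG1 exceeded SNF1.

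MIG1, the main repressor, was at 67.1, 18.5 and 33.7 FPKM in rpd3 log, DS and Q cells, against 52.2, 22.8 and 3.21 FPKM in the wild type. It was lowest in DS cells of the mutant and lowest in Q cells of the wild type. Its change between DS and Q cells was 0.83 in the mutant and -2.50 in the wild type, where the medians of all genes were -0.81 and -2.90. Relative to these it was 1.64 and 0.40, and with centred columns it was 1.66 and 1.03. MIG2, a second repressor with related zinc fingers, was at 81.3, 36.9 and 20.5 FPKM in rpd3 log, DS and Q cells, against 43.1, 32.5 and 2.31 FPKM in the wild type. Both repressors thus had their highest value in log cells in both strains; with each column centred on its median gene, MIG1 was highest in Q cells of both strains, at 67.8 FPKM in the mutant and 88.7 FPKM in the wild type, and MIG2 in wild-type Q cells, at 63.9 FPKM. The ratio of MIG1 to MIG2 was 0.825, 0.502 and 1.65 in rpd3 log, DS and Q cells, against 1.21, 0.701 and 1.39 in the wild type, so MIG2 was the more abundant of the pair in DS cells of both strains and in log cells of the mutant.

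CAT8, the activator at the head of the gluconeogenic programme, was at 9.31, 46.0 and 45.8 FPKM in rpd3 log, DS and Q cells, against 6.25, 53.4 and 13.2 FPKM in the wild type. In the mutant the ratio of its Q to its DS level was 0.997, while in the wild type the ratio of Q to DS was 0.248. Within each column, CAT8 exceeded 11.6%, 61.4% and 81.1% of genes in rpd3 log, DS and Q cells, against 9.997%, 76.0% and 91.7% in the wild type, so its standing among transcripts was higher in Q than in DS cells of both strains. SIP4, an activator of the same gene class that binds the Snf1 complex, was at 18.4, 259 and 57.9 FPKM in rpd3 log, DS and Q cells, against 2.61, 124 and 3.09 FPKM in the wild type. SIP4 had the largest change of the 10 between log and DS cells, 3.75 in the mutant and 5.12 in the wild type. RDS2, a zinc cluster regulator of gluconeogenesis, had the smallest range of the activators over the 6 conditions (2.72 on the log2 scale), at 26.2, 35.3 and 19.1 FPKM in rpd3 log, DS and Q cells, against 17.1, 28.0 and 4.51 FPKM in the wild type.

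ADR1, the activator of ADH2 and of peroxisomal genes, was at 38.4, 195 and 92.4 FPKM in rpd3 log, DS and Q cells, against 19.4, 135 and 20.5 FPKM in the wild type. In wild-type Q cells it was at 1.06 times its log level, and it exceeded 94.9% of genes there, the highest standing of the 10 in that column. HAP4 was at 102, 286 and 25.9 FPKM in rpd3 log, DS and Q cells, against 135, 148 and 2.07 FPKM in the wild type. HAP4 was the member whose wild-type levels were farthest apart, 71.5-fold between DS and Q cells. HAP2 was at 34.9, 24.1 and 21.4 FPKM in rpd3 log, DS and Q cells, against 23.8, 26.2 and 2.33 FPKM in the wild type. The ratio of HAP4 to HAP2 was 2.93, 11.9 and 1.21 in rpd3 log, DS and Q cells, against 5.68, 5.66 and 0.888 in the wild type. The ratio of the regulated to the DNA-binding subunit was therefore nearly equal in wild-type log and DS cells and lowest in Q cells of both strains.

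How the regulators respond to glucose exhaustion is addressed by wild-type DS against log cells. SIP4 (5.12), CAT8 (2.91) and ADR1 (2.74) were higher by 2-fold or more in DS cells, and MIG1 (-1.16) was lower by 2-fold or more. That is 3 and 1 of 10 members, against 9.91% of all genes higher and 44.2% lower, with a median change of -0.85; with each column centred on its median gene, 20.1% were higher and 22.2% lower. With centred columns 6 members were 2-fold or more higher and 0 lower: RDS2 (0.68), HAP2 (0.13) and HAP4 (0.13), under 2-fold on the deposited scale, came to 1.56, 1.02 and 1.04, and MIG1 to -0.28. Also under 2-fold were MIG2 (-0.40), REG1 (-0.47) and SNF1 (-0.75), whose direction turned with centred columns to 0.49, 0.42 and 0.14. MIG1 was the only member below the median gene, at -0.31 relative to it, against 5.96 for SIP4.

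Wild-type Q cells compared with log cells give the levels after 7 days of culture. In log2(FPKM + 1) no member was at least 2-fold higher and 7 of 10 were at least 2-fold lower. Of all genes 1.84% were higher and 93.2% lower (28.6% and 33.4% centred), with a median change of -3.87. The 3 exceptions were CAT8 (0.97), SIP4 (0.18) and ADR1 (0.08), and they had the largest changes relative to the median gene, 4.84, 4.05 and 3.94. In plain FPKM CAT8 was at 2.12 times its log level, which adding 1 FPKM brought under 2-fold. CAT8 and SIP4 started from 6.25 and 2.61 FPKM in log cells, so neither could be lower by the median change on this scale. HAP4 (-5.47) was the only member below the median gene, at -1.60 relative to it. The changes of SNF1 (-3.29), MIG1 (-3.66), MIG2 (-3.74), HAP2 (-2.89), REG1 (-2.17) and RDS2 (-1.72) turned with centred columns, to values between 0.56 and 2.79.

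Between wild-type DS and Q cells all 10 members were at least 2-fold lower, as were 94.6% of all genes; 0.171% were higher (23.6% and 26.1% higher and lower with centred columns). The count thus matched the background. HAP4 (-5.60), SIP4 (-4.93), MIG2 (-3.34) and HAP2 (-3.03) were lower by more than the median gene (-2.90), at -2.70, -2.04, -0.44 and -0.13 relative to it. ADR1 (-2.66), SNF1 (-2.53), MIG1 (-2.50), RDS2 (-2.40), CAT8 (-1.93) and REG1 (-1.70) were lower by less than it. With centred columns HAP4 (-2.26) and SIP4 (-1.44) stayed lower, and the other 8 turned to between 0.07 for MIG2 and 2.10 for REG1.

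In the deletion strain 4 activators were higher by 2-fold or more in DS than in log cells. SIP4 (3.75), ADR1 (2.32), CAT8 (2.19) and HAP4 (1.48) were at least 2-fold higher and MIG1 (-1.80) and MIG2 (-1.12) at least 2-fold lower. These were 4 and 2 of 10 members, against 7.54% and 28.6% of all genes (13.9% and 13.3% centred), with a median of -0.52. The change of HAP4 was 1.48 in the mutant and 0.13 in the wild type, a difference of 1.34 where the median difference over all genes was 0.40; with centred columns HAP4 passed 2-fold in both strains, at 2.03 in the mutant and 1.04 in the wild type. RDS2 (0.42) and SNF1 (-0.76) differed by less than 2-fold in the mutant, and the call of MIG2 was lost with centred columns (-0.57). The change of SIP4 in the mutant minus that in the wild type was -1.37, with log levels of 18.4 FPKM in the mutant and 2.61 FPKM in the wild type. HAP2 (-0.52) and REG1 (-0.45) turned with centred columns, to 0.02 and 0.10.

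In mutant Q cells 3 activators were above their log level. CAT8 (2.18), SIP4 (1.61) and ADR1 (1.25) were at least 2-fold higher in rpd3 Q than in rpd3 log cells and HAP4 (-1.94), MIG2 (-1.94), SNF1 (-1.52) and REG1 (-1.35) at least 2-fold lower. These were 3 and 4 of 10, against 4.36% and 64.9% of all genes (16.3% and 19.4% centred), with a median of -1.39. With centred columns none of these 4 was 2-fold lower, at -0.57 for HAP4, -0.58 for MIG2, -0.14 for SNF1 and 0.02 for REG1. RDS2 (-0.44), HAP2 (-0.68) and MIG1 (-0.97) turned to 0.91, 0.68 and 0.40. Against rpd3 DS cells no member was at least 2-fold higher in rpd3 Q cells, and HAP4 (-3.42), SIP4 (-2.14) and ADR1 (-1.07) were at least 2-fold lower. These 0 and 3 of 10 stand against 2.68% and 40.6% of all genes (9.18% and 15.9% centred) and a median of -0.81. REG1 (-0.90), RDS2 (-0.86), MIG2 (-0.82) and MIG1 (0.83) differed by less than 2-fold; with centred columns MIG1 came to 1.66 and ADR1 to -0.24. SNF1 (-0.76), HAP2 (-0.16) and CAT8 (-0.00) turned with centred columns, to 0.06, 0.65 and 0.83.

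**Figure D2:**
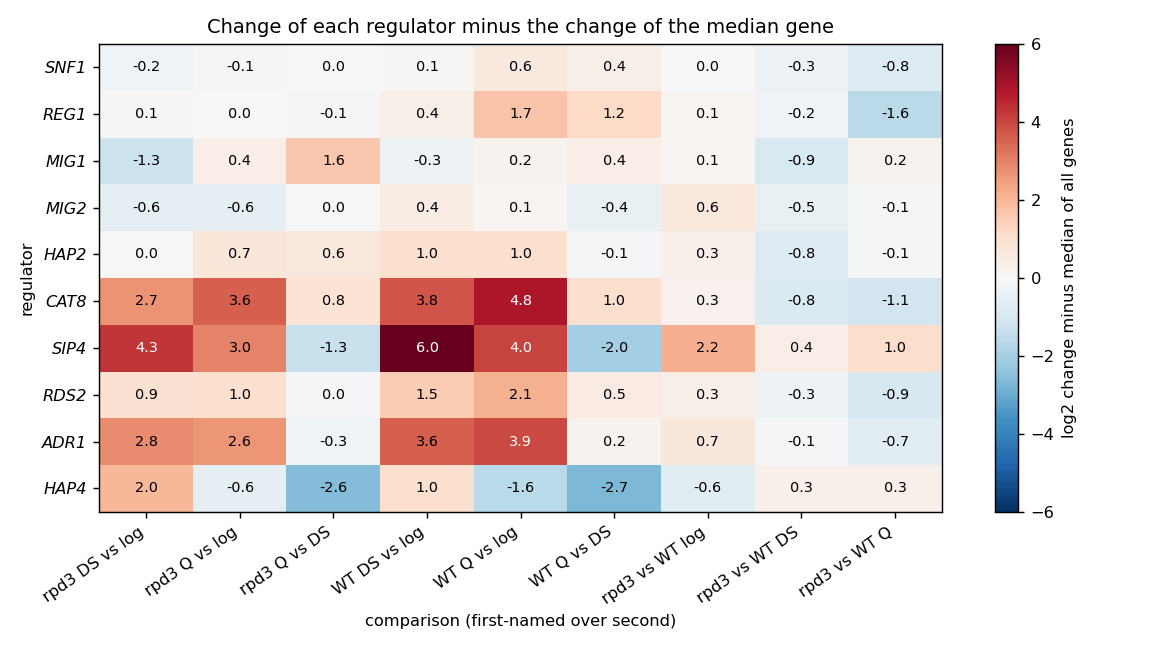
Log2 change of each regulator (rows) minus the median change of all genes in 9 comparisons (columns, first-named condition over the second; red above and blue below the median gene). SIP4, CAT8 and ADR1 stand above the median gene in DS and Q cells against log cells in both strains, and HAP4 stands below it in Q against DS cells, at -2.61 in the mutant and -2.70 in the wild type.

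The comparison of genotypes asks which of these transcripts differ when Rpd3 is missing. In log cells SIP4 was 18.4 FPKM in the mutant against 2.61 FPKM in the wild type (2.42), the only one of the 10 at least 2-fold higher; none was at least 2-fold lower. Of all genes 10.2% were higher and 3.38% lower (4.01% and 5.97% centred), with a median of 0.25, and SIP4 lay above 99.6% of them. ADR1 (0.95) and MIG2 (0.90) came next, just under 2-fold, followed by RDS2 (0.58), HAP2 (0.53) and CAT8 (0.51). HAP4 (-0.40) was the only member lower in the mutant. SNF1 (0.29), MIG1 (0.36) and REG1 (0.39) turned with centred columns, to -0.10, -0.03 and -0.00.

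In DS cells SIP4 was again the only member at least 2-fold higher in the mutant (1.06), with HAP4 next (0.94), and none was at least 2-fold lower. That is 1 of 10 against 31.3% of all genes higher and 3.61% lower (10.9% and 9.48% centred), with a median of 0.64. The other changes were 0.53 for ADR1, 0.40 for REG1, 0.33 for RDS2, 0.29 for SNF1, 0.18 for MIG2, -0.12 for HAP2, -0.21 for CAT8 and -0.29 for MIG1, and 8 of the 10 members lay below the median gene. SNF1, ADR1, RDS2, MIG2 and REG1, positive on the deposited scale, turned to between -0.21 and -0.55 with centred columns, while SIP4 (0.32) and HAP4 (0.21) stayed above 0, SIP4 then under 2-fold, and MIG1 came to -1.01.

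In Q cells all 10 regulators were at least 2-fold higher in the mutant, as were 94.5% of all genes; 0.343% were lower, and the shares were 22.5% and 26.6% with centred columns. The count is the background itself, and the median change of all genes was 2.81. In wild-type Q cells the median gene was at 1.39 FPKM and 41.7% of genes were below 1 FPKM, where adding 1 FPKM shrinks changes. On this scale SIP4 (3.85), HAP4 (3.13) and MIG1 (3.04) exceeded the median change. REG1 (1.21), CAT8 (1.72) and RDS2 (1.87) were farthest below it, with SNF1 (2.06), ADR1 (2.12), MIG2 (2.70) and HAP2 (2.75) between. With centred columns only SIP4 stayed higher in the mutant (0.44, under 2-fold); the other 9 turned to between -0.13 for HAP4 and -2.49 for REG1. 

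**Figure D3:**
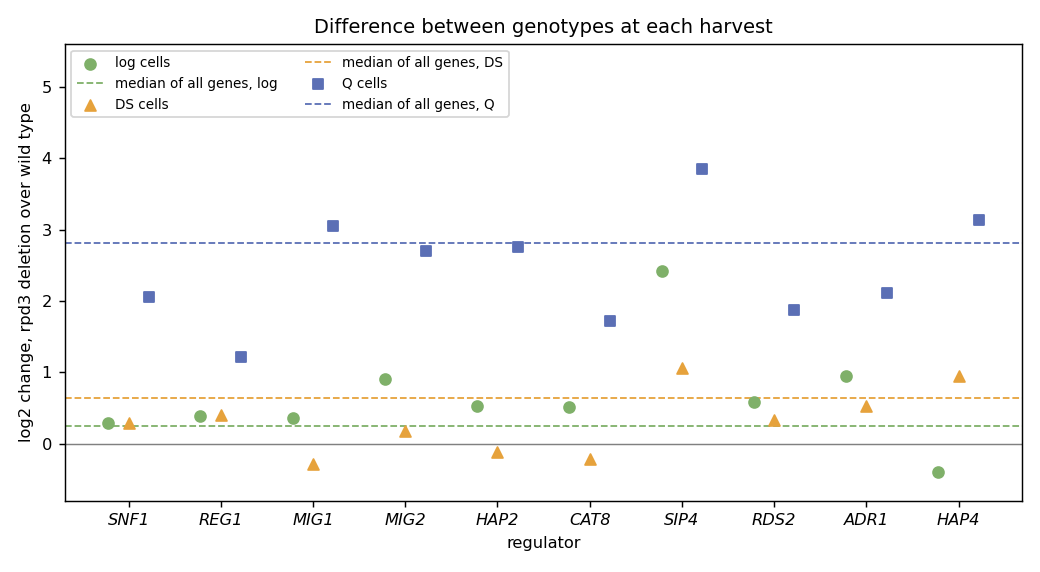
Log2 change of each regulator in the rpd3 deletion over the wild type in log (circles), DS (triangles) and Q cells (squares), with the median of all genes at each harvest as a dashed line. SIP4 lies above the line at all 3 harvests, at 2.42, 1.06 and 3.85, and all 10 Q values lie above 0 but only 3 above the Q median of 2.81; with centred columns only SIP4 of the Q values is above 0.

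The other genes of the pathway were taken from 7 lists of 87 genes, all with a row in the table; 5 genes stand in more than 1 list, and the 10 members are included. In the list of the Snf1 complex and its upstream kinases, 1 of 8 stood 2-fold or more higher and 2 lower in rpd3 DS than log cells, and 1 higher and 4 lower in wild-type DS than log cells. Of all genes 7.54% were higher and 28.6% lower in the mutant, and 9.91% and 44.2% in the wild type. With centred columns 2 of the 8 were lower in the mutant and 1 in the wild type, against 13.3% and 22.2% of all genes. The higher gene in both was SIP2, one of the beta subunits that place the kinase in the cell. SIP2 was at 35.1, 128 and 22.4 FPKM in rpd3 log, DS and Q cells, against 18.0, 108 and 5.32 FPKM in the wild type. GAL83, the beta subunit that takes Snf1 into the nucleus, was at 88.7, 28.1 and 15.7 FPKM in the mutant, against 57.3, 23.4 and 3.50 FPKM in the wild type. The ratio of SIP2 to GAL83 was 0.395, 4.58 and 1.43 in rpd3 log, DS and Q cells, against 0.313, 4.62 and 1.52 in the wild type, so the more abundant beta subunit transcript was GAL83 in log and SIP2 in DS and Q cells. TOS3, an upstream kinase, had the largest decrease of the list in DS against log cells, -1.71 in the mutant and -3.18 in the wild type.

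Among repressors and phosphatase subunits, 2 of 13 stood 2-fold or more higher in DS than in log cells in each strain. In the mutant 6 were lower and in the wild type 7. Of all genes 7.54% in the mutant and 9.91% in the wild type were higher, and 28.6% and 44.2% lower. With centred columns 3 were lower in each strain, against 13.3% of all genes in the mutant and 22.2% in the wild type. REG2, a relative of REG1, was at 4.23, 128 and 22.96 FPKM in rpd3 log, DS and Q cells, against 5.87, 136 and 3.85 FPKM in the wild type. The ratio of REG2 to REG1 was 0.0497, 2.07 and 0.701 in rpd3 log, DS and Q cells, against 0.0906, 2.93 and 0.284 in the wild type, and DS cells were the only harvest with more REG2 than REG1. MTH1, a corepressor of hexose transporter genes, was the other gene higher in DS cells (1.72 in the mutant and 1.29 in the wild type), and STD1, its paralog, was the lowest (-2.74 and -3.76). In Q cells of the mutant NRG1, a repressor of glucose-repressed genes, was at 56.8 FPKM, against 7.08 FPKM in wild-type Q cells, and at 31.0 FPKM in mutant log cells, against 64.2 FPKM in wild-type log cells; with centred columns its change in the mutant over the wild type turned to -0.77 in Q cells. The corepressor genes TUP1 and CYC8 had genotype changes of 3.57 and 3.38 in Q cells, where the median of all genes was 2.81; with centred columns they came to 0.41 and 1.42.

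**Figure D4:**
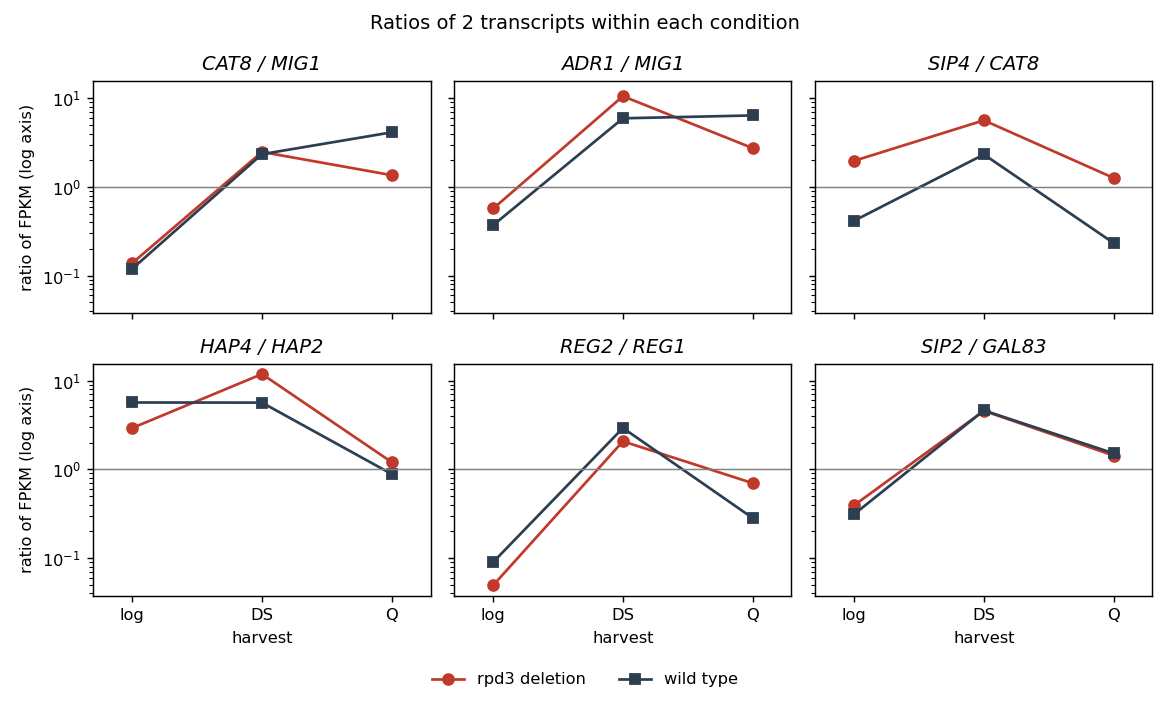
Ratio of FPKM of 2 transcripts within the same condition (log axis, same scale in all panels) at the 3 harvests in the rpd3 deletion (circles) and the wild type (squares). A ratio does not depend on the scale of its column if all genes of the column were scaled by the same factor. CAT8 to MIG1 is below 1 in log cells and above 1 in DS and Q cells of both strains, and SIP4 to CAT8 is above 1 at all 3 harvests in the mutant but only in DS cells in the wild type.

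The ratios of CAT8 and of ADR1 to MIG1 were below 1 in log cells and above 1 in DS cells of both strains, while HAP4 over MIG1 was above 1 at both harvests, at 1.53 and 15.4 in rpd3 log and DS cells, against 2.59 and 6.50 in the wild type. CAT8 over MIG1 was 0.139, 2.48 and 1.36 in rpd3 log, DS and Q cells, against 0.120, 2.34 and 4.12 in the wild type. ADR1 over MIG1 was 0.572, 10.54 and 2.74 in rpd3 log, DS and Q cells, against 0.372, 5.94 and 6.40 in the wild type. The strains thus had similar CAT8 to MIG1 ratios in log and DS cells, and in Q cells both ratios were lower in the mutant. SIP4 over CAT8 was 1.97, 5.63 and 1.26 in rpd3 log, DS and Q cells, against 0.417, 2.32 and 0.233 in the wild type, higher in the mutant at each harvest.

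The list of activators of nonfermentative growth holds 6 of the 10 members. In DS against log cells 5 of its 14 genes were 2-fold or more higher in each strain, against 7.54% and 9.91% of all genes. Its median change was 0.23 in the mutant and 0.24 in the wild type. With centred columns 6 were higher in the mutant and 10 in the wild type, against 13.9% and 20.1% of all genes. The genes beside members were USV1 in both strains (1.27 in the mutant and 1.31 in the wild type) and GSM1 in the wild type (0.83 in the mutant and 1.95 in the wild type). GSM1, a zinc cluster gene, was at 22.3, 40.4 and 34.9 FPKM in rpd3 log, DS and Q cells, against 7.59, 32.2 and 8.04 FPKM in the wild type. GSM1 (1.44) and SIP4 were the 2 genes of the list at least 2-fold higher in the mutant in log cells. HAP3, with HAP2 in the DNA-binding part of the Hap complex, was at 68.2, 70.5 and 18.0 FPKM in rpd3 log, DS and Q cells, against 41.3, 39.9 and 0.814 FPKM in the wild type. HAP5, the other subunit of that part, was at 33.4, 33.8 and 18.8 FPKM in the mutant, against 16.2, 20.2 and 1.08 FPKM in the wild type. HAP3 and HAP5 thus differed by less than 2-fold between log and DS cells in both strains on the deposited scale; with centred columns HAP5 reached 1.18 in the wild type.

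The target genes of Cat8, Sip4 and Adr1 had larger median changes between log and DS cells than the median gene. All 11 Cat8 and Sip4 targets stood 2-fold or more higher in DS than log cells in both strains. Of all genes 7.54% in the mutant and 9.91% in the wild type did. The median of the targets was 7.28 in the mutant and 6.90 in the wild type, with PCK1, the gluconeogenic PEP carboxykinase, at 9.90 and 9.29. In Q against log cells the count of these targets was 6 of 11 in the mutant and 2 of 11 in the wild type, against 4.36% and 1.84% of all genes. Their medians were 1.19 and -0.32, where all genes had -1.39 and -3.87. With centred columns the count was 10 and 11, against 16.3% and 28.6% of all genes, with medians of 2.50 and 4.16. The 2 higher in the wild type on the deposited scale were ACS1, acetyl-CoA synthetase (3.29), and JEN1, the lactate permease (3.004). CAT8 was at 45.8 FPKM in mutant Q cells, against 46.0 FPKM in mutant DS cells, while SIP4 was at 57.9 against 259 FPKM. All 11 targets in the list of both activators were at least 2-fold lower in mutant Q than DS cells (median -4.92), as were 40.6% of all genes. With centred columns 9 of the 11 were lower, against 15.9% of all genes.

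Of all genes 7.54% in the mutant and 9.91% in the wild type were at least 2-fold higher in DS than log cells. Of the 12 Adr1 targets 11 in the mutant and all 12 in the wild type were, with medians of 2.997 and 3.84. In Q against log cells 10 were higher in the mutant and 7 in the wild type, with medians of 1.88 and 1.53 against -1.39 and -3.87 for all genes, of which 4.36% and 1.84% were higher. With centred columns 11 were higher in the mutant and 12 in the wild type, with medians of 3.27 and 6.20. Of all genes 16.3% and 28.6% were then higher. ADY2, an acetate transporter, led with 6.62 in the mutant and 6.02 in the wild type, and POT1, peroxisomal thiolase, was at 5.52 in the mutant. In log cells 9 of 12 Adr1 targets were at least 2-fold higher in the mutant than in the wild type, against 10.2% of all genes. The median of the targets was 1.23, where that of all genes was 0.25. With centred columns 5 of 12 were higher, with a median of 0.84, against 4.01% of all genes. CRC1, the mitochondrial carnitine carrier (2.62), and ACS1 (2.34) led the list on the deposited scale, while ADR1 itself differed by 0.95.

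In DS against log cells 7.54% of all genes in the mutant and 9.91% in the wild type were at least 2-fold higher. Of 21 Hap targets 19 were in each strain, with medians of 1.96 in the mutant and 1.77 in the wild type. SDH2, a succinate dehydrogenase subunit, was highest (3.96 and 4.22), and HEM1, the first enzyme of heme synthesis, was at 0.44 and -0.41, the second of which turned to 0.50 with centred columns. HAP4 differed by 1.48 in the mutant and 0.13 in the wild type over the same interval, or 2.03 and 1.04 with centred columns. In Q against log cells 14 of 21 were at least 2-fold lower in the mutant and 18 in the wild type. Of all genes 64.9% and 93.2% were lower. With centred columns 3 were lower and 5 higher in the mutant, against 19.4% and 16.3% of all genes. In the wild type 4 were then lower and 9 higher, against 33.4% and 28.6% of all genes. CYC1, cytochrome c, was lowest in both strains on the deposited scale (-4.75 and -7.73). Relative to the median gene the list lay at -0.09 in the mutant and -0.12 in the wild type, and the wild-type median of -3.98 became 0.73 with centred columns.

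The Mig1 targets did not move as 1 group. Of the 13, 7 stood 2-fold or more higher and 2 lower in DS than log cells of the mutant, and 6 higher and 2 lower in the wild type. Of all genes 7.54% were higher and 28.6% lower in the mutant, and 9.91% and 44.2% in the wild type. With centred columns 9 targets were higher and 1 lower in the mutant, and 7 and 2 in the wild type. Of all genes 13.9% were then higher and 13.3% lower in the mutant, and 20.1% and 22.2% in the wild type. FBP1, fructose-1,6-bisphosphatase, was highest (8.38 and 8.24), and the hexose transporter genes HXT2 (-5.25 and -7.29) and HXT4 (-1.19 and -4.68) were lowest. HXT2, a high-affinity transporter, was at 998, 25.3 and 929 FPKM in rpd3 log, DS and Q cells, against 1250.2, 7.02 and 33.8 FPKM in the wild type. SUC2, invertase, was at 43.5, 112 and 59.8 FPKM in the mutant, against 70.4, 68.7 and 1.55 FPKM in the wild type. In Q cells all 13 were at least 2-fold higher in the mutant (median 3.17, and 0.50 centred), where 94.5% of all genes were. MAL32 has a near-identical copy, MAL12, so its value in this list is uncertain.

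**Figure D5:**
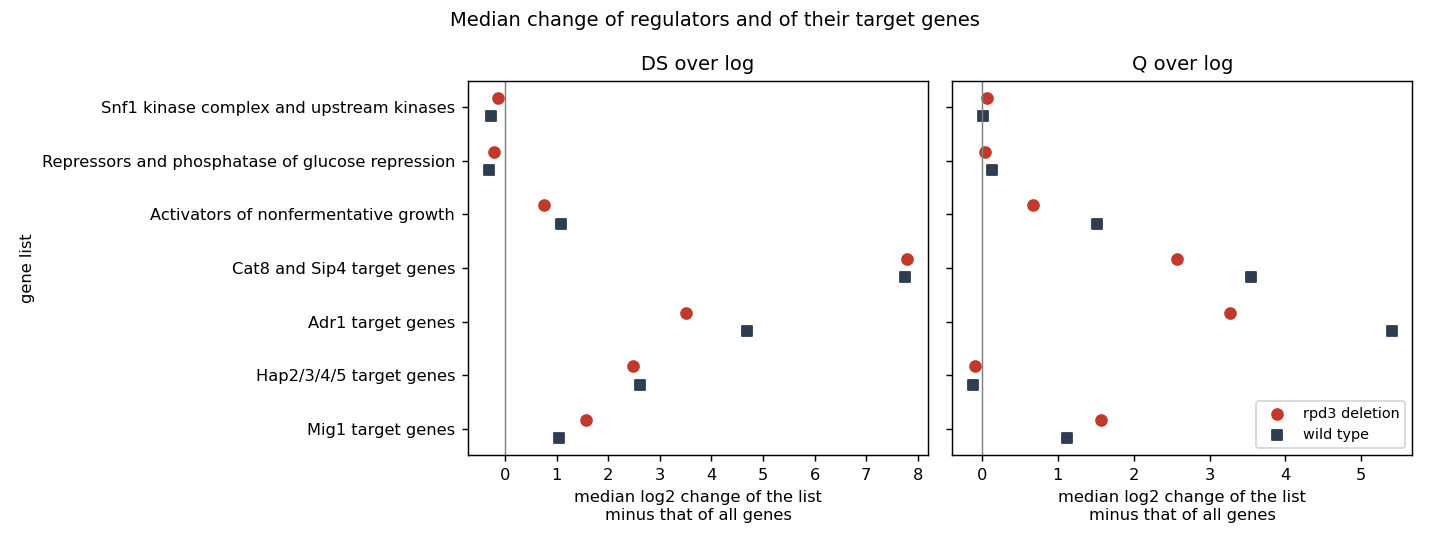
Median log2 change of each gene list minus the median change of all genes, for DS over log cells (left) and Q over log cells (right), in the rpd3 deletion (circles) and the wild type (squares). Cat8 and Sip4 targets lie 7.79 (mutant) and 7.74 (wild type) above the median gene in DS cells, and Hap targets lie at -0.09 in the mutant and -0.12 in the wild type in Q cells. With centred columns, not drawn, the median change of the Hap targets in Q over log cells was -0.09 in the mutant and 0.73 in the wild type.

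For each regulator, the 2 genes with the most similar profile were found by the Euclidean distance between log2(FPKM + 1) profiles over the 6 conditions, each centred on its own mean, among 4852 genes with a standard name and a value in all conditions. The points share conditions and scale, so closeness to the many genes that follow the whole transcriptome is common. SNF1 was nearest to CHS5 (distance 0.22) and FRQ1 (0.25), REG1 to UBR1 (0.26) and ROY1 (0.28), MIG1 to UFD1 (0.27) and CDC55 (0.45), and MIG2 to CAP1 (0.23) and UBP2 (0.30). HAP2 was nearest to YHC1 (0.32) and KKQ8 (0.33) and RDS2 to ATG15 (0.31) and ATG4 (0.33). CAT8, ADR1, HAP4 and SIP4 had more distant neighbours. CAT8 was nearest to POX1, the acyl-CoA oxidase of peroxisomes (0.84), and PEX18, a peroxisomal import factor (0.85). ADR1 was nearest to PIR3 of the cell wall (0.61) and CSR2 (0.68), and HAP4 to AIM24, a mitochondrial protein gene (0.69), and ARG8 (0.75). SIP4 had the most distant nearest gene, CAT2, carnitine acetyltransferase (1.56), followed by GUT1, glycerol kinase (1.59). Among the 10 themselves the closest pair was SNF1 and MIG2 (0.81), CAT8 and ADR1 were 1.24 apart, HAP2 and RDS2 1.09, and the farthest pair was SIP4 and MIG1 (6.20).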

How the data were processed

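Deposited values are log2 FPKM with 1 column per condition. The authors scaled them with external controls so that they reflect the RNA of a cell, per the series' design text. CASAVA, TopHat2, SAMtools, Cuffdiff and Cufflinks 2.2.1 are named in the submitters' processing notes; for their settings, the build, the annotation and the pooling of the 2 isolates, no source was at hand. Base 2 was inferred from the values: the sum of FPKM times length in kb over genes matched to RefSeq was 1288200 for wild-type log cells, against 31055485 if the base were e, and unscaled FPKM sum near the smaller figure. The 4 rows of 2 repeated names were left out. In the mutant DS column 109 rows near the end, 107 of them equal to the first rows of the mutant Q column, were left out after the data were seen; they hold no member or list gene.

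The values were converted to FPKM, the 6524 genes reaching 1 FPKM in any condition were kept, and differences of log2(FPKM + 1) were counted at 2-fold. Alternatives were pseudocounts of 0.1 and 10, no filter, and columns centred on their median gene (each column divided by its median and set to that of wild-type log cells). The design had allowed for replicate columns; with 1 value per condition no test was run. The rule for named genes took every member in every comparison, the 2 nearest profiles of each, and of the other lists the 2 largest and 2 smallest changes of a comparison; the levels of list genes and the ratios of transcripts were picked after their values were seen. The members and lists were chosen with earlier results of these data known. Calculations used Python 3.11.15, numpy 2.4.6, pandas 2.3.3 and matplotlib 3.10.9. Known fold changes put without noise into the wild-type log column were recovered, which checks the arithmetic alone and bears on no result.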

Additional observations from a re-analysis of the deposited data

Results flagged for a closer look

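Several regulators went in opposite directions in the deletion strain and the wild type, or changed sign between harvests. None of these differences could be tested, since each rests on 1 value per condition. Between DS and log cells HAP2 had a log2 change of -0.52 in the mutant and 0.13 in the wild type, which with centred columns were both above 0, at 0.02 and 1.02. Between Q and DS cells MIG1 had 0.83 in the mutant and -2.50 in the wild type, which with centred columns were both above 0, at 1.66 and 1.03. The mutant over wild-type change of CAT8 was 0.51 for log, -0.21 for DS and 1.72 for Q harvests. For HAP4 it was -0.40, 0.94 and 3.13 in the same order, for HAP2 0.53, -0.12 and 2.75, and for MIG1 0.36, -0.29 and 3.04. With centred columns CAT8 was at 0.16, -0.94 and -1.98 and HAP4 at -0.79, 0.21 and -0.13. HAP2 was then at 0.15, -0.84 and -0.57. MIG1 was then below 0 at each harvest, at -0.03, -1.01 and -0.38. Changes between -1 and 1 are under 2-fold. The medians of all genes, 0.25, 0.64 and 2.81 for the mutant over the wild type, move with the Q values on the deposited scale. Their part in the result was not tested.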

How the results depend on the processing

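Each condition has 1 value of unknown depth. No paired analysis was possible because each condition has 1 pooled value; leaving out isolates was not run for the same reason. Of the 90 member changes, leaving out the filter on low values altered none in direction or in passing 2-fold, a pseudocount of 0.1 altered 1, a pseudocount of 10 altered 4, and centring each column on its median gene turned the sign of 43, of which 24 had passed 2-fold, ended 8 further calls and added 8. Centring removes by construction the shift of the median gene; other causes were not tested.

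With centred columns the reversed values in mutant over wild-type Q cells were -1.59 for SNF1, -1.98 for CAT8, -1.60 for ADR1, -0.13 for HAP4, -0.57 for HAP2, -1.67 for RDS2, -0.38 for MIG1, -0.62 for MIG2 and -2.49 for REG1. In mutant Q over log cells REG1 turned to 0.024. In wild-type Q over log cells they were 1.35 for SNF1, 1.40 for HAP2, 2.79 for RDS2, 0.75 for MIG1, 0.56 for MIG2 and 2.52 for REG1. In wild-type Q over DS cells they were 1.21 for SNF1, 1.86 for CAT8, 1.16 for ADR1, 0.39 for HAP2, 1.23 for RDS2, 1.03 for MIG1, 0.066 for MIG2 and 2.10 for REG1.

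Counts of members at least 2-fold higher and lower with centred columns were 4 and 1 (mutant DS over log), 3 and 0 (mutant Q over log), 1 and 2 (mutant Q over DS), 6 and 0 (wild-type DS over log), 7 and 1 (wild-type Q over log) and 6 and 2 (wild-type Q over DS). For mutant over wild type they were 1 and 0 in log, 0 and 1 in DS and 0 and 5 in Q cells. Counts of all genes higher and lower were 883 and 848, 1044 and 1240, 579 and 1004, 1309 and 1445, 1840 and 2145, and 1512 and 1678 in that order of harvest comparisons, and 260 and 387, 697 and 606, and 1442 and 1709 for mutant over wild type in log, DS and Q cells.

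With a pseudocount of 10, no member was at least 2-fold lower in wild-type DS over log cells (MIG1 -0.92) and 1 was in mutant DS over log cells (MIG2 -0.96); RDS2 in wild-type Q over log cells (-0.90) and REG1 in mutant over wild-type Q cells (0.86) also came under 2-fold. Counts of all genes were then 83 higher in mutant Q over DS, 181 higher in mutant Q over log and 2 higher in wild-type Q over DS cells. For mutant over wild type they were 313 higher and 80 lower in log cells, 1058 higher and 140 lower in DS cells, and 8 lower in Q cells. With a pseudocount of 0.1, 1 member was at least 2-fold higher in wild-type Q over log cells (CAT8 1.07), and 17 genes were higher in wild-type Q over DS cells.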
